A study of Mus musculus with 38 samples.

Results

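The 8 genes described here, Dppa2, Dppa3, Dppa4, Dppa5a, Utf1, Tdh, Tcl1 and Lin28a, are markers of pluripotent cells that act downstream of, or beside, the core transcription factors Nanog, Oct4 (Pou5f1) and Sox2. They were taken by gene symbol, not by level. Each was found in the larger bulk table of 35976 genes, in the smaller bulk table of 37108 genes and in the single-cell table of 20695 genes. None of them was delivered to the cells, so every value is of the cells' own gene.

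The study converted mouse embryonic fibroblasts (MEFs) of embryonic day 13.5, from crosses of OG2 (Oct4-GFP) and 129S4/SvJaeJ mice, with retroviral transcription factors in the chemically defined medium iCD3, with BMP4 at 10 ng/ml (BMP4+) or without (BMP4−). JGES stands for Jdp2, Glis1, Esrrb and Sall4. JGE lacked Sall4, JGEO carried Oct4 in place of Sall4, and JGESO carried both. Bulk RNA was sequenced for JGES on day 0 and, with and without BMP4, on days 1, 3, 5 and 7, for the other factor sets at day 7, and for MEFs given SALL4 alone at days 1, 5, 9 and 11. SALL4 alone was either the full protein (SALL4-WT) or SALL4-delN12, which lacks the N-terminal stretch that binds the chromatin remodelling complex NuRD. JGES cells of day 7 were also profiled one by one, and SALL4-alone cells were profiled for open chromatin (ATAC-seq) and, at day 6, for SALL4 and H3K27ac (Cut&Tag). Retroviral delivery gives a mixed culture, so bulk values are averages over cells at different stages.

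DPPA2 and DPPA4 are chromatin proteins that work as a pair and keep developmental promoters poised, and they switch on genes of the early embryo. DPPA3 (Stella) keeps the methylation adaptor UHRF1 away from DNA in oocytes and early embryos, DPPA5A is a small KH-domain protein of pluripotent and germ cells, and UTF1 is a chromatin-bound repressor. TCL1 is a co-activator of the kinase AKT, TDH breaks down threonine in mitochondria and feeds one-carbon metabolism in mouse embryonic stem cells, and LIN28A binds RNA and blocks maturation of let-7 microRNAs. LIN28A is not restricted to naive pluripotent cells and is found in many early embryonic lineages.

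Each condition has 1 library or 1 sample, so no difference below has a replicate check and no test was made. Between 12030 and 14621 genes per bulk library were listed at 1 FPKM or more. Sall4 was at 2.09 and 6.23 FPKM in JGE without and with BMP4, at 28.9 and 30.3 in JGEO, and at 174 or more in each library that was given SALL4, the JGES library of day 0 included (650). Jdp2 was at 228 or more and Esrrb at 109 or more in every library labelled as given them, and both at 21.5 or less with SALL4 alone. These shared factors differed in level between the factor sets. At day 7 without BMP4, Jdp2 was at 1722 FPKM in JGE, 1290 in JGEO, 320 in JGESO and 228 in JGES. Esrrb was at 561, 384, 109 and 167 in the same order, and Pou5f1 at 1570 in JGEO and 370 in JGESO. Glis1 went against the labels, at 1.13 FPKM or less in all libraries and at 0 in JGES of day 7 without BMP4, so its delivery is not seen in these values. The JGES library of day 0 held Jdp2 at 375 and Esrrb at 240, so it follows delivery of these 2 and Sall4. Id1, a direct target of BMP signalling, was between 233 and 293 FPKM in JGES with BMP4 and between 65.0 and 78.1 without, over days 1 to 7. In JGE it was at 188 and 48.8. In JGEO it was at 60.1 with BMP4 and 81.1 without, and in JGESO at 334 and 339. The single-cell samples hold 11335 BMP4+ cells (median 21205 UMIs) and 8685 BMP4− cells (median 12738 UMIs), and 2 barcodes occur in both.

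Promoter sequences from RefSeq were at hand for 3 of the 8 genes, Utf1, Tcl1 and Lin28a. Of these, Utf1 and Tcl1 stayed low with BMP4 in JGES while Lin28a did not. A link between the sequences and that difference was not tested. Each runs 250 bases before to 50 bases after the RefSeq start site, 5′ to 3′ on the gene's strand (GRCm38.p6). Capitals mark CCGCCC or its reverse complement GGGCGG, the GC box bound by SP and KLF factors.

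Utf1, chr7:139943606-139943905, plus strand: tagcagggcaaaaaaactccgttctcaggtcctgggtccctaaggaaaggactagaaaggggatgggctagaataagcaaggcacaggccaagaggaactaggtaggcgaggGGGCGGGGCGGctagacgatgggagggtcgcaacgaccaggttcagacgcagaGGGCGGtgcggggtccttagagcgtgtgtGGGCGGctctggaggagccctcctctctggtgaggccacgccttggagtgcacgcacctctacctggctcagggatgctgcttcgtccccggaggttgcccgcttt

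Tcl1, chr12:105222688-105222987, minus strand: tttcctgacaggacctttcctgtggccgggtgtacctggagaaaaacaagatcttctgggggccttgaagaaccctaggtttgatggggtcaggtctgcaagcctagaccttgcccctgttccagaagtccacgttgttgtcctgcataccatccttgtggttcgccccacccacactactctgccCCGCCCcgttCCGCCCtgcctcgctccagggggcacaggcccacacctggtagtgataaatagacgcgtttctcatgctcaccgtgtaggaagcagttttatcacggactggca

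Lin28a, chr4:134018767-134019066, minus strand: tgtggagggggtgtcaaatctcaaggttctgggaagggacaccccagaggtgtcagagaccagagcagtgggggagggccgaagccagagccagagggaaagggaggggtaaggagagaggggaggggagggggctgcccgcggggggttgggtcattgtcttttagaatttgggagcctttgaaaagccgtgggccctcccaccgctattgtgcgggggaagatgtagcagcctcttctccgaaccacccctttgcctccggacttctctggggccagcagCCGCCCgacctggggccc

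The GC box occurs 4 times in the Utf1 window, where the first pair overlaps, 2 times in the Tcl1 window and 1 time in the Lin28a window. Of 32851 promoters of the same length, 35.7% hold it on either strand. The windows were also searched on both strands for other motifs. For ESRRB the letters were AAGGTCA, held by 4.72% of promoters. The octamer ATGCAAAT of OCT4 is held by 1.74%, the SOX core ACAAAG by 18.7%, the GATA-factor core AGATAA by 11.2%, and the SMAD-bound element GGCGCC by 11.9%. The JUN and FOS site TGACTCA is held by 5.20%, and the promoter box TATAAA by 13.6%. None of these letters is in any of the 3 windows. GC content is 62% for Utf1, 56.7% for Tcl1 and 63.3% for Lin28a, above the median of 52.7% over the promoters.

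Without BMP4, the 8 genes came on in JGES in 3 steps. Tdh, Dppa5a and Utf1 had reached an FPKM of 1 by day 1, Dppa2, Dppa3 and Lin28a by day 3, and Dppa4 and Tcl1 by day 5. FPKM is a level per length of transcript, and in bulk RNA fewer expressing cells and less RNA per cell cannot be told apart.

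Tdh stood apart from the rest. On days 0, 1, 3, 5 and 7 its FPKM was 0.179, 131, 169, 93.6 and 67.2. It was thus near its peak 1 day after the start, when none of the other 7 genes was above 1.52 FPKM, and after day 3 it declined, while 6 of the other 7 were highest at day 7 and Lin28a at day 5.

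Utf1 followed with a steady climb. It was listed at 0 at day 0 and was at 1.12, 9.54, 44.2 and 93.9 FPKM at days 1, 3, 5 and 7. Dppa5a was at 1.52 at day 1 and 3.77 at day 3, then at 236 at day 5 and 527 at day 7. Its difference of log2(FPKM+1) between days 3 and 5 was 5.63, so nearly its whole level appeared after day 3.

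The DPPA2 and DPPA4 pair did not start together. Dppa2 was listed at 0 on days 0 and 1 and was at 1.78, 10.2 and 15.5 FPKM on days 3, 5 and 7. Dppa4 was at 0.451 on day 3, 19.5 on day 5 and 30.8 on day 7. At day 3 Dppa2 was at 11.5% of its day 7 level and Dppa4 at 1.46%, while by day 5 they were at 65.9% and 63.3%.

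Dppa3 was at 1.69, 15.4 and 30.7 FPKM on days 3, 5 and 7, and Tcl1 at 0, 8.43 and 22.7. Both were listed at 0 on day 1, and both were still climbing at day 7. Lin28a was at 0.135, 0.326, 5.41, 22.4 and 20.3 FPKM on days 0, 1, 3, 5 and 7. Together with Tdh it was 1 of 2 members whose highest value came before day 7.

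**Figure D1:**
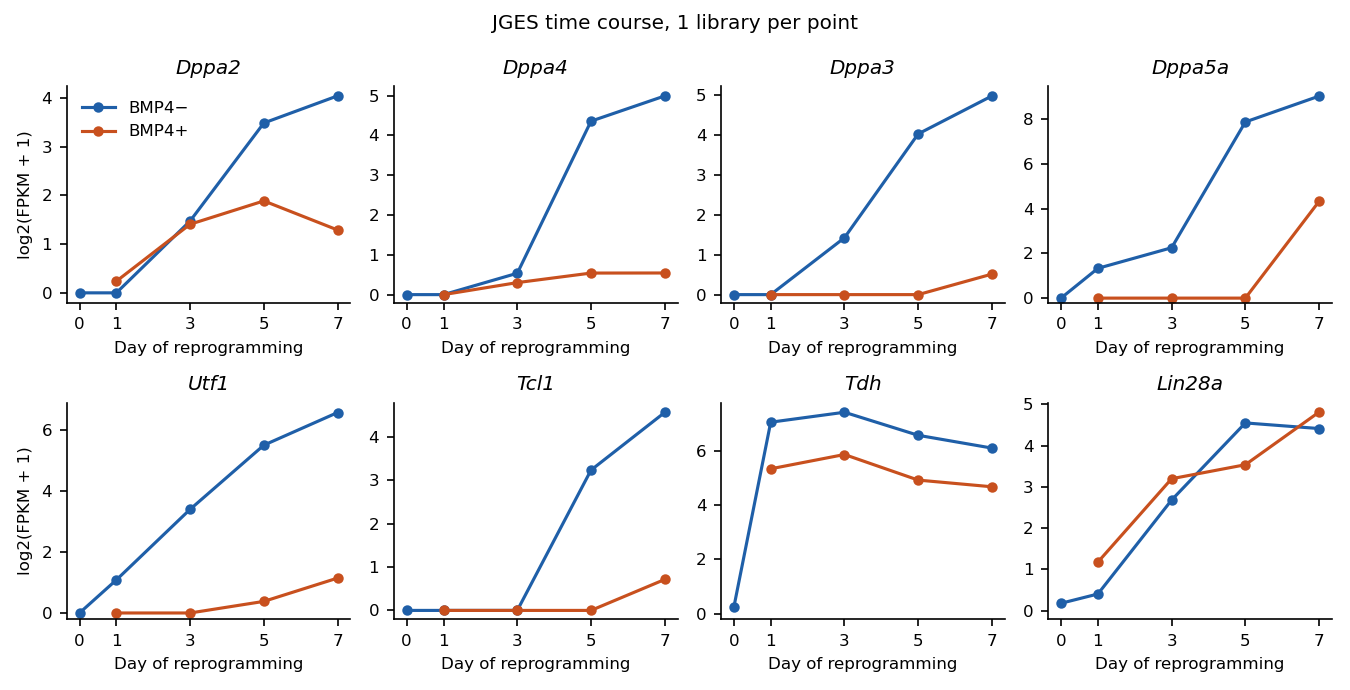
Level of each gene, as log2(FPKM + 1), by day of JGES reprogramming with BMP4 (orange) and without (blue), 1 library per point and a separate vertical scale per gene. The lines part for Tdh, Dppa5a and Utf1 at day 1 at day 3 for Dppa3 and after day 3 for Dppa2, Dppa4 and Tcl1, whereas those of Lin28a cross.

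At day 7 without BMP4 the order of FPKM was Dppa5a, Utf1, Tdh, Dppa4, Dppa3, Tcl1, Lin28a and Dppa2. With 1 library, neighbours in this order, such as Dppa4 at 30.8 and Dppa3 at 30.7, cannot be said to differ. The order of activation also moves with the level asked for: at 5 FPKM, Tdh came at day 1, Utf1 and Lin28a at day 3 and the other 5 genes at day 5. At 10% of a gene's own highest JGES value, Tdh came at day 1, Dppa2, Utf1 and Lin28a at day 3 and the rest at day 5. At 50% of it, Tdh came at day 1, Dppa2, Dppa3, Dppa4 and Lin28a at day 5, and Dppa5a, Utf1 and Tcl1 at day 7. Tdh was at day 1 under all 4 settings, tied with Dppa5a and Utf1 at 1 FPKM, and Tcl1 was among the last under each, while Dppa4 was not at 50%.

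With BMP4, the sequence was cut short. At 1 FPKM, Tdh and Lin28a were present by day 1 and Dppa2 by day 3, so 3 of the 8 genes were on by day 5, against 8 of 8 without BMP4. Dppa5a and Utf1 reached 1 FPKM at day 7, and Dppa3, Dppa4 and Tcl1 on no day. The highest BMP4+ values of these last 3 genes were 0.429, 0.457 and 0.641 FPKM.

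A gene was called different between 2 libraries when its log2(FPKM+1) differed by at least 1 and it was at 1 FPKM or more in either. At day 1, 3 members were lower with BMP4 and none higher (of all genes tested, 5.72% were called lower and 3.75% higher). At day 3, 4 were lower and none higher (background 8.99% lower and 6.81% higher). At day 5 all 8 were lower (background 13.2% lower and 8.78% higher), and at day 7, 7 of 8 (background 13.8% lower and 10.3% higher). The median difference over the 8 was 0, -0.83, -3.53 and -4.15 on days 1, 3, 5 and 7. Over members at 1 FPKM or more in either library it was -1.21 at day 1 (4 members) and -1.49 at day 3 (6 members). The median over all genes was -0.18 at day 5 and -0.14 at day 7. Once libraries were scaled to remove that shift, Lin28a was no longer called at day 5 (-0.86), which leaves 7 of 8.

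At day 1 a lower call was possible only in the genes that had come on, Tdh, Dppa5a and Utf1. The rest were at 0.326 FPKM or less without BMP4 and had no room to fall. At day 1 Tdh was at 39.2 FPKM with BMP4 and 131 without, Dppa5a was listed at 0 against 1.52, and Utf1 at 0 against 1.12. The difference of Tdh stayed of like size, being -1.71, -1.56, -1.65 and -1.42 on days 1, 3, 5 and 7. Its BMP4+ library was at 56.9, 29.2 and 24.4 FPKM on days 3, 5 and 7. Tdh was therefore lower with BMP4 throughout, yet still switched on, with the same peak at day 3.

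Dppa5a and Utf1 were lower at every day. Dppa5a was listed at 0 in the BMP4+ libraries of days 1, 3 and 5 and was at 19.2 FPKM at day 7, against 527 without BMP4, a difference of -4.71. Utf1 was at 1.21 FPKM at day 7 with BMP4 and 93.9 without, a difference of -5.42, the largest of the 8 at that day.

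Dppa2 and Dppa4 differed in how they met BMP4. Dppa2 was at 1.65 FPKM with BMP4 and 1.78 without on day 3, and was still at 2.7 on day 5 and 1.45 on day 7. Dppa4 was at 0.233, 0.456 and 0.457 on the same days. At day 7 the BMP4+ level was 9.33% of the highest BMP4− level for Dppa2 and 1.49% for Dppa4. Dppa3, the methylation guardian, was listed at 0 on days 1, 3 and 5 with BMP4 and was at 0.429 at day 7 (difference -4.47). Tcl1 was at 0.641 against 22.7 FPKM at day 7 (difference -3.85).

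Lin28a was the exception. With BMP4 it was at 1.26, 8.17, 10.6 and 27.05 FPKM on days 1, 3, 5 and 7, and it was the higher of the pair on days 1, 3 and 7. The differences were 0.77, 0.52, -1.01 and 0.40. Of these, 3 miss the threshold, so at day 7 Lin28a was the 1 member not called lower.

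**Figure D2:**
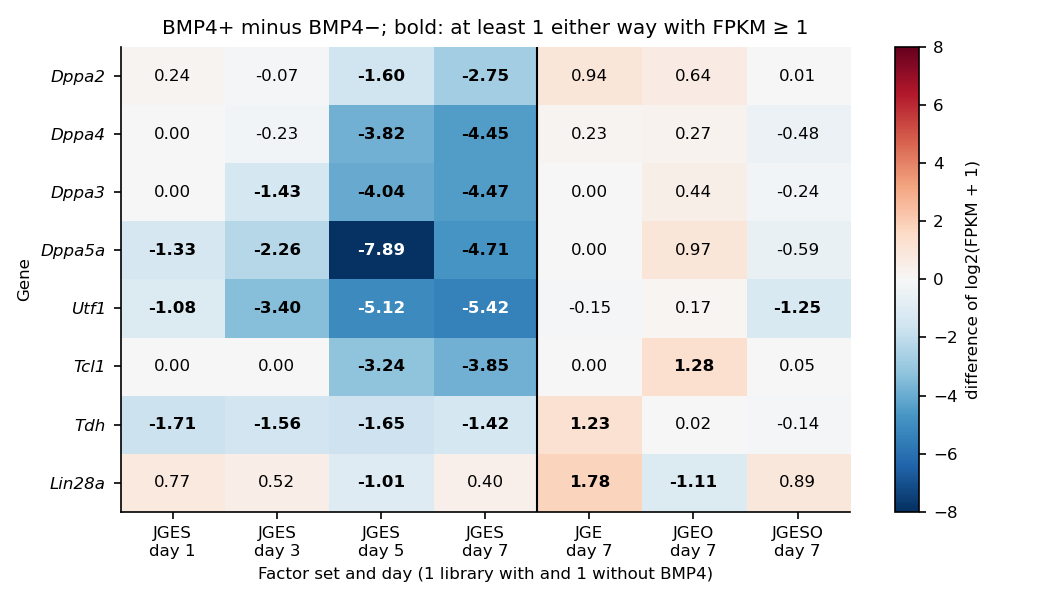
Difference of log2(FPKM + 1), BMP4+ minus BMP4−, for each gene (rows) in JGES by day and in the other factor sets at day 7 (columns, 1 library with and 1 without BMP4 in each), with called differences in bold. Values reach -7.89 in JGES, where all called values are negative, and lie between -1.25 and 1.78 in JGE, JGEO and JGESO.

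The partners and pathways of these genes were followed in fixed lists, counted over members at 1 FPKM or more in either library. At day 7, 13 of 17 pluripotency transcription factors and signals were lower with BMP4 and 1 was higher (median -3.10). Pou5f1 was at 6.08 FPKM against 230 and Nanog at 1.82 against 60.5. Of the DPPA2/4 targets and 2-cell genes, 8 of 8 were lower at day 7, among them Zscan4f, a marker of embryonic genome activation, at 0.384 against 44.0 FPKM and Zscan4c at 0.154 against 20.8. Without BMP4 Zscan4f had been at 4.62, 1.70 and 3.10 FPKM on days 1, 3 and 5, so its high level came at day 7. Dppa2 and Dppa4 were listed at 0 on day 1 and were at 10.2 and 19.5 FPKM on day 5. A link between their levels and that of Zscan4f was not tested.

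Enzymes around TDH were followed in a list of 13 threonine, glycine and one-carbon genes. None was called at day 1 (median 0.02) or day 3 (median -0.65, where all genes had -0.09), 9 were lower at day 5 (median -1.20) and 5 at day 7 (median -0.87). Gcat, which completes the TDH reaction, was at 5.75 FPKM with BMP4 and 19.9 without at day 5. Gldc, the glycine-cleaving decarboxylase, was at 6.09 against 20.0 at day 5, but at 24.7 against 34.1 at day 7.

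Of the LIN28 partners and let-7 targets, 0 of 11 were lower at day 1, 1 of 11 at day 3, 3 of 12 at day 5 and 0 of 12 at day 7 (median -0.59 at day 5 and -0.50 at day 7), and 1 was higher on each of days 1, 5 and 7, Arid3a at day 7. Of 10 DPPA3 partners and DNA methylation genes, 5 were lower at day 7, and these were Uhrf1, Dnmt1, Dnmt3l, Tet1 and Tet2. Uhrf1, the adaptor that DPPA3 displaces, was at 31.5 against 79.3 FPKM. Of 7 TCL1 family and AKT genes, 1 was lower at day 1, 1 at day 3, 2 at day 5 and none at day 7, when Akt1 was at 51.2 against 49.5. Of 8 germ cell genes 4 were lower at day 7 and 1 higher, and of 4 KH-domain oocyte genes 2 were lower, among them Ooep at 2.33 against 16.7, and 1 higher. The 7 pluripotent marker genes were all lower, and 4 of 6 fibroblast markers were higher, Col1a1 being at 361 FPKM against 20.2. Of the primitive endoderm markers 3 of 7 were higher (median 0.95), of the endothelial markers 2 of 6, and of 5 placenta-like markers 2 were higher and 2 lower. Their part in the members' values was not tested.

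Genes with the most similar course to each member were sought over the 17 libraries of the larger table among 12351 genes, by Pearson's r of log2(FPKM+1). These points share libraries and time courses, so r is a description. Dppa3 was closest to Cnpy1 (r = 0.99), Dppa4 to Gpa33 (0.99), Utf1 to Cphx1 (0.99) and Tcl1 to Gm21283 (0.99). Dppa2 was closest to Mtf2, a Polycomb subunit (0.95), followed by Zscan10 and Tet1. Tdh was closest to Gm17232 (0.99), with Prr15l and Pdk1 next, Dppa5a to Trap1a (0.97) and Lin28a to Arid3b (0.95). Among the members, Dppa3 and Dppa4 were most alike (0.98), and Tdh and Tcl1 least (0.40).

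The next comparison sets the delivered factor sets side by side at day 7. As given above, the sets also differed in the levels of the factors they share. The part of those levels in the members' values was not tested. In JGE without BMP4 the genes were nearly silent apart from Tdh: it was at 9.74 FPKM, Lin28a at 0.809, Dppa2 at 0.162, Dppa4 at 0.123 and Utf1 at 0.109, and Dppa3, Dppa5a and Tcl1 were listed at 0. All 8 were higher in JGES than in JGE (background 20.1% higher and 16.9% lower), and all 8 were higher in JGEO than in JGE (background 10.2% higher and 11.9% lower). Either Sall4 or Oct4 on top of JGE was thus accompanied by the whole set. In JGES against JGE, 7 of 7 pluripotent and 5 of 7 primitive endoderm markers were also higher (medians 5.32 and 1.56), and 6 of 6 fibroblast markers were lower (median -2.95). In JGEO against JGE, 7 of 7 pluripotent markers were higher (median 2.89), and 1 of 6 fibroblast markers and 3 of 3 blood markers were lower. Their part in the members' values was not tested.

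Levels with either addition were as follows. Dppa2 was at 15.1 FPKM in JGES and 3.68 in JGEO, Dppa4 at 30.02 and 4.74, Dppa3 at 29.96 and 10.9, and Tcl1 at 22.2 and 1.59. Dppa5a was at 514 in JGES and 164 in JGEO, and Utf1 at 91.6 and 33.6. Tdh was at 65.5 in JGES and 81.7 in JGEO, and Lin28a at 19.8 and 29.5. With 1 library each, these levels are given side by side. The calling rule was not applied between JGES and JGEO, so no call is given either way.

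Adding Oct4 to JGES did not add to the set. No member was higher in JGESO than in JGES without BMP4, and 5 were lower, Dppa2, Dppa3, Dppa4, Tcl1 and Tdh (32.7% of all genes tested were lower and 16.8% higher). Dppa4 was at 4.29 FPKM in JGESO, Tcl1 at 2.65 and Dppa2 at 3.86. Against JGEO, Utf1 was higher in JGESO (74.6 against 33.6) and Tdh lower (32.2 against 81.7), and the other 6 were not called (background 7.48% higher and 20.7% lower). The median of all genes was -0.21 for JGESO against JGES and -0.26 against JGEO. Markers of other cell types moved in the same comparison with JGES: 7 of 7 primitive endoderm markers (median 2.32) and 6 of 6 fibroblast markers (median 2.78) were higher in JGESO. So were 3 of 5 placenta-like markers (median 1.41). Of 5 endothelial markers 3 were lower and 1 higher (median -1.24), and 3 of 7 pluripotent markers were lower (median -0.83). Against JGEO, 7 of 7 primitive endoderm markers were higher (median 3.48). Of 6 fibroblast markers 2 were higher and 1 lower, and 3 of 7 pluripotent markers were lower (median -0.72). Their part in the members' values was not tested.

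BMP4 was also compared in the other factor sets. In JGE without BMP4, 7 of the 8 were at 0.809 FPKM or less and could not be called lower, so Tdh was the one gene with room to fall; the share of all genes called lower, 4.78%, therefore has no bearing on the members. Lin28a and Tdh were higher with BMP4 (background 4.28%), Lin28a at 5.21 FPKM against 0.809 and Tdh at 24.2 against 9.74. Dppa2 was at 1.23 against 0.162, a difference of 0.94 that just misses the threshold. In the same comparison 2 of 6 endothelial markers were higher (median 0.75) and 2 of 6 fibroblast markers lower (median -0.73). In JGEO, Tcl1 was higher at 5.29 against 1.59 (background 2.26%) and Lin28a lower at 13.2 against 29.5 (background 1.95%). Dppa5a was at 322 against 164, a difference of 0.97 that also just misses the threshold. Of the endothelial markers, 4 of 6 were higher with BMP4 in JGEO (median 1.10).

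In JGESO, no member was higher (background 5.29%) and Utf1 was lower with BMP4, at 30.8 FPKM against 74.6 (background 3.52%). Dppa5a was at 174 against 262 and Lin28a at 50.3 against 26.7, and neither was called. Here 2 of 4 endothelial markers were higher (median 0.65) and 1 of 7 primitive endoderm markers was lower. The part of such markers' cell types in the members' values was not tested in any of the 3 factor sets. The median difference over the 8 was 0.12 in JGE, 0.36 in JGEO and -0.19 in JGESO. Over the 3 members at 1 FPKM or more in either JGE library it was 1.23. As given above, Id1 was not higher in the BMP4+ library of JGEO or JGESO than in the BMP4− library. Whether these cultures received the BMP4 signal as JGES did was not tested.

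The single-cell samples of day 7 show which cells carried these transcripts. Cell types are those the authors gave, and the label ParE, which the table does not spell out, is kept as written. The authors describe these types as clusters of the same single-cell RNA data. Levels of members and markers by type are therefore not independent of the labels. The 7 pluripotent markers summed to 1615 CPM in pluripotent cells and 150 in intermediate cells without BMP4. The 7 primitive endoderm markers summed to 1001 CPM in cells labelled ParE without BMP4 and 1383 with BMP4, and to at most 101 CPM in any other type. The endothelial label was less clear without BMP4, where its cells held more of the 5 blood markers than of the 6 endothelial markers (356 and 305 CPM). Of the blood markers 2 of 5 were at 1 CPM or more there, and of the endothelial markers 6 of 6. Values are the UMIs of a gene scaled by all UMIs of a cell type (CPM), with exact 95% Poisson intervals that cover counting error alone.

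Without BMP4, 7 of the 8 genes were at least 13.2-fold higher in the 1825 pluripotent cells than in the 6211 intermediate cells (of all genes tested, 13.3% were at least 2-fold higher and 20.2% lower). Dppa5a was at 6305 CPM in pluripotent cells and 261 (258 to 265) in intermediate cells. Tdh was at 258 (252 to 264) against 19.5, Dppa3 at 277 against 14.6, and Utf1 at 204 against 9.22. Dppa4 was at 72.99 against 3.21, Tcl1 at 68.2 against 2.25, and Dppa2 at 34.9 against 2.01. The ratio lay between 13.2 for Tdh and 30.3 for Tcl1.

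Lin28a broke the pattern again. It was at 23.3 CPM (21.6 to 25.1) in pluripotent cells and 15.4 (14.6 to 16.3) in intermediate cells, a ratio of 1.51. Its highest BMP4− level was in the 142 cells labelled ParE, at 93.6 CPM (80.4 to 108), 4.02 times that of pluripotent cells (interval 3.38 to 4.74). Against cells labelled ParE, the other 7 genes were higher in pluripotent cells (background 17.1% higher and 19.7% lower). Against endothelial cells all 8 were (background 15.6% higher and 16.9% lower), Lin28a by 4.01-fold.

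**Figure D3:**
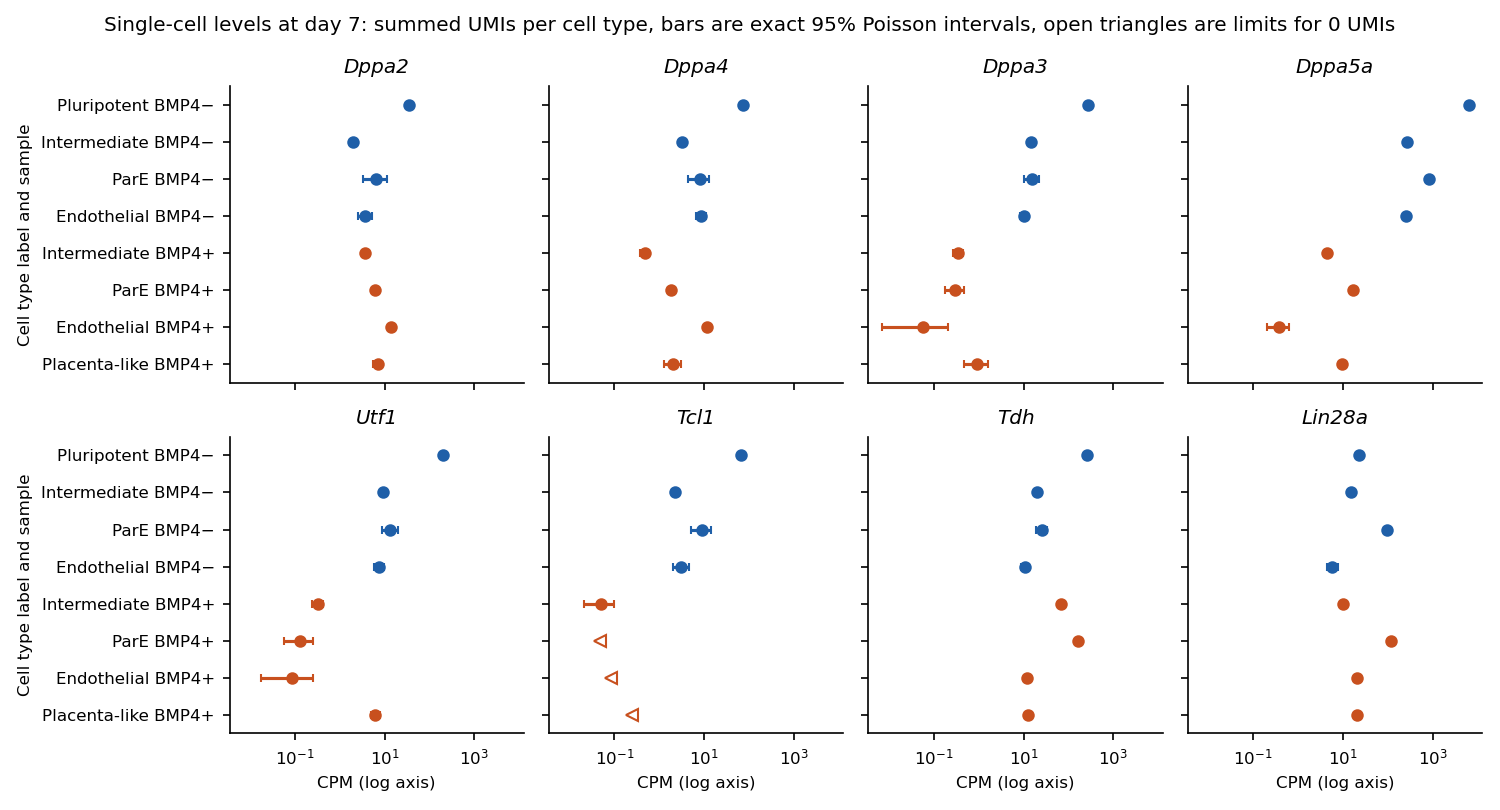
CPM of each gene (log axis) in each cell type of the BMP4− sample (blue) and the BMP4+ sample (orange) at day 7, with exact 95% Poisson intervals; open triangles give the limit that 0 UMIs allow. For 7 genes the highest point is the pluripotent one, and for Lin28a it is ParE.

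Low levels outside pluripotent cells need care, since free RNA gives UMIs in cells that do not express a gene. A Dppa5a UMI was found in 94.0% of BMP4− intermediate cells (median 11892 UMIs) and 94.5% of endothelial cells (median 15083 UMIs), against 99.7% of pluripotent cells (median 15444 UMIs). In the BMP4+ sample, which has no cells labelled pluripotent, it was in 1.19% of intermediate cells. The intermediate level was a narrow share of the pluripotent level for most members: 3.30% for Tcl1, 4.14% for Dppa5a, 4.40% for Dppa4, 4.52% for Utf1, 5.28% for Dppa3 and 5.75% for Dppa2. The intervals of the lowest and the highest of these, Tcl1 (2.82% to 3.83%) and Dppa2 (4.85% to 6.78%), do not overlap. Of the 6211 intermediate cells, 101 held at least 10 Dppa5a UMIs, with 9.40% of its UMIs in that type. How much of these levels is free RNA and how much is expression was not tested.

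Tdh was at 7.56% (7.16 to 7.97) in intermediate cells and at 4.28% in endothelial cells. In endothelial cells, 5 members were between 3.72% and 4.53%, while Dppa2 was at 10.5% (7.13 to 15.1) and Dppa4 at 11.7% (9.13 to 14.8). In cells labelled ParE, Dppa5a was at 12.8% of the pluripotent level. Of these 142 cells, 29 held at least 10 Dppa5a UMIs, and they carried 77.4% of its UMIs there, so the level came from a minority of cells.

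**Figure D4:**
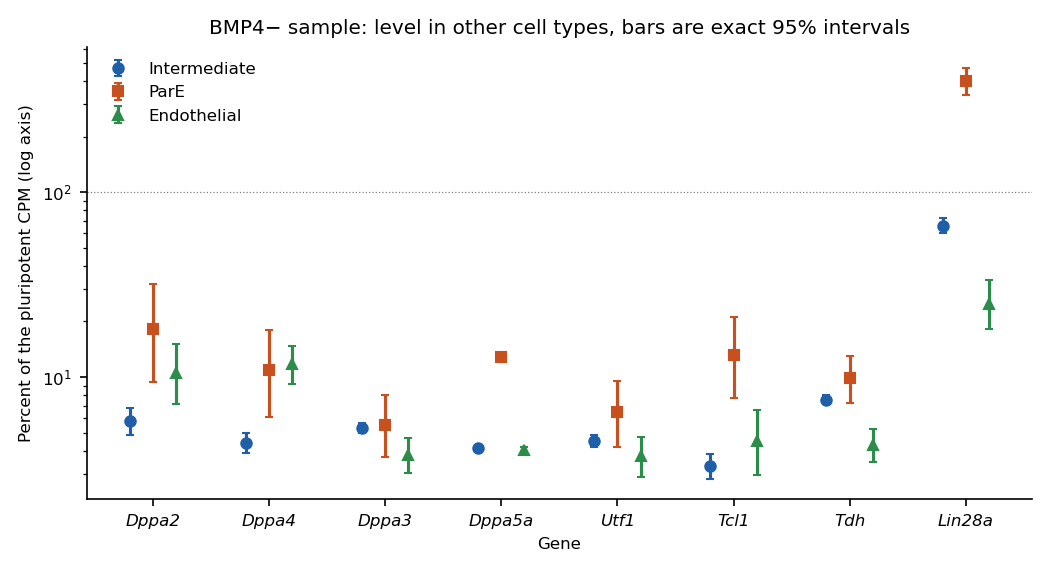
Level of each gene in 3 other cell types of the BMP4− sample as a percentage of its level in pluripotent cells (log axis, dotted line at 100%), with exact 95% intervals. The other 7 genes lie between 3.30% and 18.2%, and Lin28a between 24.96% and 402%.

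Within the pluripotent cells the members varied unequally. After each cell was thinned to 4000 UMIs, Dppa5a was detected in 98.3% of cells (99.7% before thinning), Tdh in 58.3% (90.7%), Dppa3 in 54.4% (81.2%) and Utf1 in 48.7% (80.5%). Dppa4 was detected in 26.2% (60.7%), Tcl1 in 22.0% (54.7%), Dppa2 in 11.5% (38.8%) and Lin28a in 8.22% (28.7%). The variance of thinned counts was 11.3 times the mean for Dppa5a and 2.42 times for Dppa3, where 1 is what counting alone gives and the ratio grows with the level. Tdh, at a mean of 1.07 thinned UMIs per cell, was at 1.48, while Dppa3, at a like mean of 1.18, was at 2.42. Dppa3 was thus less evenly spread than Tdh, reaching 112 UMIs in a cell before thinning while 18.8% of cells had none. The median pluripotent cell showed 5 of the 8 genes, or 3 after thinning, and 2 of 1825 thinned cells showed all 8.

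Over all cells, 5 members were lower with BMP4, Dppa3, Dppa4, Dppa5a, Utf1 and Tcl1 (of all genes tested, 8.7% were at least 2-fold lower and 29.5% higher). Dppa3 was at 0.323 CPM against 77.6, Dppa5a at 6.95 against 1725, Utf1 at 0.512 against 56.2 and Dppa4 at 2.30 against 20.5. Tcl1 had 8 UMIs in 11335 BMP4+ cells and 2254 in 8685 BMP4− cells. These 5 are also the genes with the lowest ratio of BMP4+ to BMP4− FPKM in bulk RNA at day 7, from 0.0129 for Utf1 to 0.0363 for Dppa5a.

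Lin28a was 2.04-fold higher with BMP4 (1.95 to 2.14). Tdh was at 81.7 CPM with BMP4 and 76.5 without, a ratio of 1.07, whereas the bulk libraries of day 7 gave 0.363. Dppa2 was at 5.69 against 10.1 CPM, a ratio of 0.563 that is not called. The median log2 ratio over all genes was 0.52 in favour of the BMP4+ sample. Relative to that median, Dppa2 was 2.54-fold lower, which makes 6 members lower, and Tdh was 1.34-fold lower. Lin28a was 1.42-fold higher, below the 2-fold threshold, so its call is lost.

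With BMP4, the highest level was in cells labelled ParE for Lin28a, Tdh and Dppa5a and in endothelial cells for Dppa2 and Dppa4. For Dppa5a this rests on few cells, since 20 of the 2372 labelled ParE held 89.3% of its UMIs there. Lin28a was at 118 CPM (115 to 120) in the 2372 cells labelled ParE, with a UMI in 79.0% of them, against 10.0 CPM and 14.6% in the 7125 intermediate cells. After thinning the shares were 33.5% and 3.79%. Endothelial and placenta-like cells were between, at 21.0 and 20.8 CPM. In cells labelled ParE the BMP4+ level was 1.26 times the BMP4− level (1.08 to 1.47), a log2 ratio of 0.33 where the median gene had 0.49. Within intermediate cells it was at 0.651 of the BMP4− level, which is not called as it stands but is 2.08-fold lower relative to the median gene, past the threshold. Within endothelial cells it was 3.61-fold higher with BMP4 (2.7 to 4.92; background 24.4%). Cells labelled ParE numbered 2372 with BMP4 and 142 without, and they held 7220 of the 9816 Lin28a UMIs of the BMP4+ sample.

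Tdh was carried by both large groups. It was at 165 CPM (162 to 168) in cells labelled ParE and 70.0 (68.7 to 71.3) in intermediate cells with BMP4, against 25.4 and 19.5 without. Within cells labelled ParE this is 6.51-fold higher with BMP4 (4.90 to 8.83; background 27.3% higher and 9.87% lower), and within intermediate cells 3.59-fold (background 29.1% higher and 8.19% lower). In endothelial cells it was 11.8 with and 11.05 without. Without BMP4, 7662 of 9426 Tdh UMIs were in pluripotent cells, and with BMP4, 10149 of 21987 were in cells labelled ParE and 11274 in intermediate cells.

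Between BMP4+ cells labelled ParE and intermediate cells, Lin28a, Dppa4, Dppa5a and Tdh were higher in the former (background 13.5% higher and 22.1% lower). The 13 threonine, glycine and one-carbon genes summed to 966 CPM in BMP4− pluripotent cells. Among the BMP4+ types the sum was 1526 CPM for ParE, 793 for endothelial and 745 for the placenta-like type, and it was lowest, at 443, in the intermediate state. Gldc was at 173 CPM in BMP4+ cells labelled ParE and 28.6 in pluripotent cells, and Gcat at 103 and 87.9. Of the LIN28 list, Igf2bp1 was at 210 CPM and Igf2bp3 at 87.9 in BMP4+ cells labelled ParE, against 39.5 and 17.3 in intermediate cells, though Igf2bp1 was also at 170 CPM in endothelial and 186 in placenta-like cells.

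Dppa2 and Dppa4 had their highest BMP4+ level in endothelial cells. Dppa2 was at 13.8 CPM (12.6 to 15.1) and Dppa4 at 11.6 (10.5 to 12.7) in these 1453 cells, with a UMI in 20.0% and 19.8% of them. In BMP4+ intermediate cells the levels were 3.63 and 0.472 CPM, with a UMI in 6.39% and 0.870%, at like median depth (21763 and 19594 UMIs). In the same endothelial cells Dppa5a was at 0.372 CPM, Dppa3 at 0.0572 and Tcl1 had 0 UMIs, and the 7 pluripotent markers summed to 7.47 CPM. Over the 1453 endothelial cells, Dppa5a was seen in 12 cells and Dppa3 in 2, against 290 cells for Dppa2 and 287 for Dppa4. Dppa2 in endothelial cells was 3.76-fold higher with BMP4 than without (2.61 to 5.59; background 24.4% higher and 7.83% lower) and Dppa4 1.35-fold (1.05 to 1.76), where the median gene had a log2 ratio of 0.43 and Dppa4 of 0.44. The cells under this label differed between the samples: the 6 endothelial markers summed to 658 CPM with BMP4 and 305 without, and the 5 blood markers to 33.4 and 356. The part of this in the Dppa2 difference was not tested.

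The other members were rare with BMP4. Utf1 was at 6.23 CPM (4.89 to 7.82) in the 385 placenta-like cells and at 0.329 or less elsewhere. Dppa5a was at 16.6 CPM in cells labelled ParE, but in 3.12% of them. In the whole BMP4+ sample, 30 of 11335 cells held at least 10 Dppa5a UMIs, and these 30 held 85.2% of its UMIs. Of the 30, 20 were labelled ParE, 8 intermediate and 2 placenta-like. Of the 8 intermediate ones, 8 had a UMI of Dppa4, 8 of Tdh, 7 of Utf1, 6 of Dppa2, 6 of Lin28a, 4 of Tcl1 and 2 of Dppa3. Of the 20 labelled ParE, 12 had one of Dppa4, 18 of Tdh, 2 of Utf1, 15 of Dppa2, 13 of Lin28a, 0 of Tcl1 and 5 of Dppa3. Tcl1 had 0 UMIs in the cells labelled ParE, which allows a Tcl1 UMI in up to 0.126% of such cells and does not limit the share that express it: 45.3% of pluripotent cells had no Tcl1 UMI either.

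With SALL4 alone, the set was not switched on as a whole. In the 8 libraries no value exceeded 6.71 FPKM, and with SALL4-WT none exceeded 0.623. No member was at 1 FPKM or more in either library at days 1 and 5, so none was called between SALL4-delN12 and SALL4-WT (background 4.18% higher and 5.63% lower at day 1, 4.67% and 5.19% at day 5). At days 9 and 11, 3 members were higher with SALL4-delN12 and none lower (background 6.09% and 5.75% at day 9, 6.55% and 6.58% at day 11), and they were Dppa5a, Tdh and Lin28a on both days. Sall4 itself was at 809, 623, 971 and 428 FPKM with SALL4-delN12 on days 1, 5, 9 and 11. With SALL4-WT it was at 549, 491, 518 and 290, so the libraries differ in the level of Sall4 as well as in its form. The part of that level in the members' differences was not tested.

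Lin28a was at 0, 0.0219, 2.57 and 6.65 FPKM with SALL4-delN12 on days 1, 5, 9 and 11, and at 0, 0, 0.211 and 0.243 with SALL4-WT. Tdh was at 0.0600, 0.116, 2.15 and 6.71 with SALL4-delN12, and at 0, 0, 0.503 and 0.582 with SALL4-WT. Dppa5a was at 0, 0.340, 2.96 and 4.84 with SALL4-delN12, and at 0, 0.104, 0.0820 and 0 with SALL4-WT. All 3 were thus near silent up to day 5 and appeared by day 9.

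The differences at day 11 were 2.62 for Lin28a, 2.55 for Dppa5a and 2.29 for Tdh. Dppa2, Dppa3, Dppa4, Utf1 and Tcl1 stayed below 0.63 FPKM in every SALL4-alone library. At day 11, 6 of 7 primitive endoderm markers were also higher with SALL4-delN12, Gata4 being at 29.3 against 1.51 FPKM and Sox17 at 16.2 against 0.224. So were 4 of 5 placenta-like markers and 3 of 3 blood markers, while of 3 pluripotent markers at 1 FPKM or more, 1 was higher (Pou5f1, 2.58 against 0.160) and 1 lower. In the single cells, Lin28a and Tdh had their highest BMP4+ level in cells labelled ParE. So did Dppa5a, at 16.6 CPM against 9.77 in placenta-like cells. After thinning, the share of cells with a Dppa5a UMI was 1.52% (1.07 to 2.10) in cells labelled ParE and 1.82% (0.734 to 3.71) in placenta-like cells, and these intervals overlap (3.12% and 11.4% before thinning, at median depths of 23772.5 and 28906 UMIs). The part of such cells in the bulk values was not tested.

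**Figure D5:**
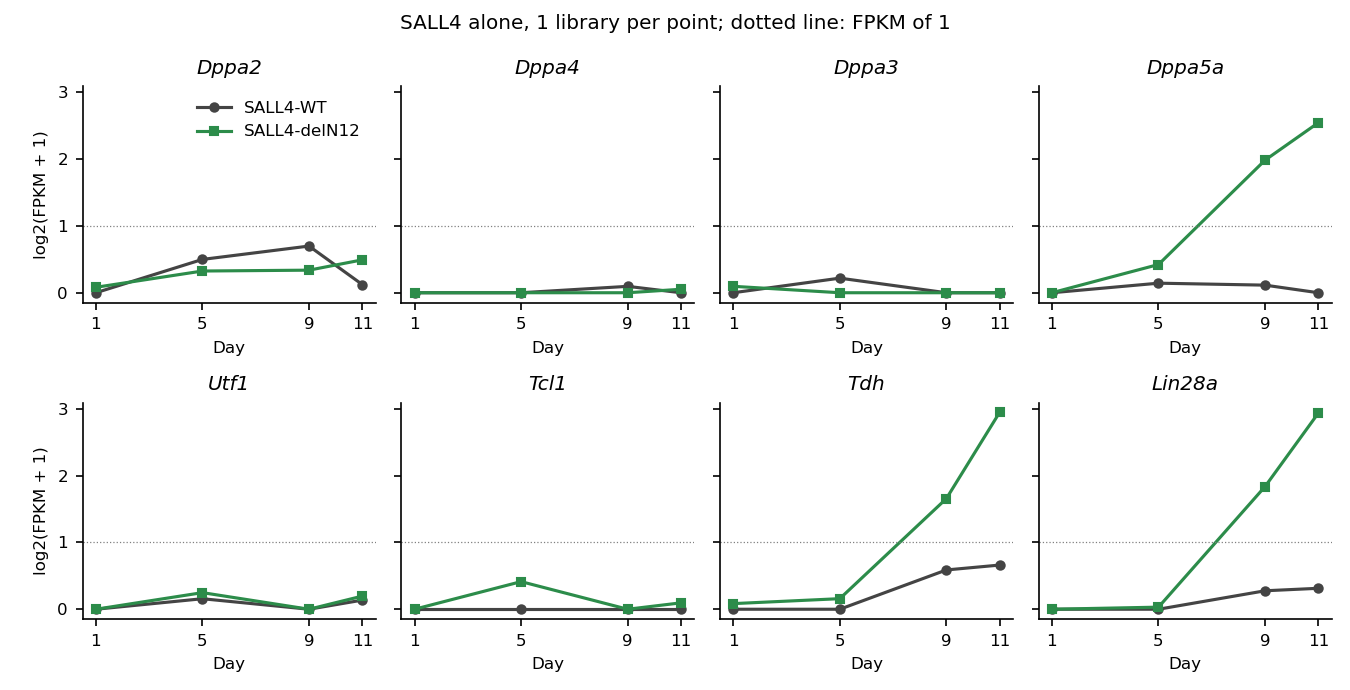
Level of each gene, as log2(FPKM + 1), in MEFs given SALL4-WT (grey circles) or SALL4-delN12 (green squares) alone, by day, 1 library per point, dotted line at 1 FPKM. Dppa5a, Tdh and Lin28a cross the line with SALL4-delN12 at days 9 and 11, and no gene crosses it with SALL4-WT.

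The peak lists show whether SALL4 lay at these genes (mm10; a promoter is 2 kb to each side of the GENCODE start). With SALL4-WT at day 6, 2 of 8 promoters held a SALL4 peak, Dppa2 and Dppa3, and 51.5% of all protein-coding promoters did. With SALL4-delN12 it was Dppa2 alone (background 38.5%). With 8 genes, no test of these shares was made. At a peak score of at least 100 the SALL4-WT count was 1, and with 5 kb to each side the SALL4-delN12 count was 2. The Dppa3 peak was centred at -1168 from the start, with a score of 83.9.

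The Dppa2 peak was the strong one. It spanned chr16:48303038-48304375 with SALL4-WT and chr16:48303118-48304552 with SALL4-delN12, covering the start of the gene (chr16:48303908-48319723, plus strand) and its first bases. Peak scores are those of the caller, which rise as its p falls, and here were 331 and 283. Of all peaks in those lists 94.3% and 86.0% scored lower.

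Chromatin at Dppa2 was open in every SALL4 library. The best ATAC-seq peak was centred between -258 and -130 bases from the start in all 8 of them, and at 314 in MEFs. Scores were 163 in MEFs, 139 with SALL4-WT at day 1 and 527, 353 and 508 on days 5, 9 and 11. With SALL4-delN12 they were 381, 341, 343 and 273. Yet Dppa2 RNA was at 0.623 FPKM or less in these cultures, so a SALL4 peak and open chromatin at this promoter went without transcript at 1 FPKM.

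H3K27ac, a mark of active regulatory DNA, was at 1 of 8 promoters with SALL4-WT, Dppa3 (background 47.6%), and at 4 with SALL4-delN12, Dppa2, Dppa3, Dppa5a and Utf1 (background 56.8%). The lists differ in length, with 19841 peaks and 45599. These counts depend on the limits set: at a peak score of at least 100 they were 0 and 1, and with 1 kb to each side 0 and 2. The Dppa2 mark scored 146 with SALL4-delN12, and with SALL4-WT the nearest H3K27ac peak was 689374 bases away. At the Dppa2 promoter there was thus a SALL4-WT peak and no H3K27ac peak in the SALL4-WT list.

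In MEFs, 3 promoters had an ATAC-seq peak, Dppa2, Dppa3 and Utf1 (background 66.2%). The SALL4-WT libraries had 3, 3, 3 and 4 on days 1, 5, 9 and 11 (background 60%, 64.4%, 63.7% and 64%), and the SALL4-delN12 libraries 2, 3, 4 and 3 (background 57.9%, 59.8%, 61.4% and 61.9%). Lin28a had a promoter peak in 2 of the 13 lists, SALL4-delN12 at day 9 (score 63.8) and SALL4-WT at day 11 (score 70.7). Utf1 scored 368 in MEFs and between 54.2 and 178 in the SALL4 libraries; its peak was centred 283 to 382 bases after the start. Dppa4, Tdh and Tcl1 had no promoter peak in any of the 13 lists. 

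Some differences lay outside the promoters. Dppa5a had a SALL4 peak of score 225 centred at -5040 from its start with SALL4-delN12 (chr9:78372745-78373690), and with SALL4-WT the nearest was 15865 bases away. An H3K27ac peak of score 53.9 overlapped it with SALL4-delN12, and ATAC-seq peaks with centres between -5152 and -4826 were present with both forms on each day. For Tdh, a SALL4-delN12 peak of score 206 lay at -8056 (chr14:63516708-63517589), and the nearest SALL4-WT peak at 20322. RNA of Dppa5a and Tdh was higher with SALL4-delN12 at days 9 and 11, as was that of Lin28a. A link between peaks outside the promoters and RNA levels was not tested. For Lin28a, SALL4 peaks of both forms lay beyond the end of the gene, centred at 17928 with SALL4-WT (score 97.9) and 17966 with SALL4-delN12 (score 52.1), with H3K27ac peaks at the same place in both lists (86.3 and 171).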

How the data were processed

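The authors trimmed bulk RNA-seq reads with Trim Galore 0.6.4, aligned them to mm10 with HISAT2 2.2.1 and deposited FPKM values per gene from StringTie 2.2.1, which adjust for library size and gene length and keep no counts. The authors deposited raw UMI counts per gene and cell, made with STAR, with their cell type in each cell's name; another 10749 columns of that table, which carry other sample names, were not used. Peak lists were deposited with the score that MACS 1.4.2 gave each peak, from reads aligned with Bowtie2 2.4.5, and the Cut&Tag replicates had been merged before calling. The table of 17 bulk libraries and the table of 8 both hold the JGES libraries of day 7. Their FPKM differ by a constant factor, 0.975 without BMP4, so each was counted as 1 library.

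Bulk differences are of log2(FPKM+1), which understates the change of low genes, and were called from 1 up in genes at 1 FPKM or more in either library. UMIs were summed per sample and cell type as CPM, and called from 2-fold up at 1 CPM or more; to compare shares of cells, each cell was thinned to 4000 UMIs (seed 7). No doublet caller was run. A limit for 0 UMIs is 3 counts. Promoters were 2 kb to each side of the GENCODE start, with an overlap of at least 1 base. Intervals are exact, at the 95% level. The 8 genes and the gene and marker lists were chosen with earlier results of these data known. The named genes are the 8, the 3 most similar genes to each (FPKM of at least 5 in some library) and examples from the lists, which were picked after their values were seen. Scripts were tested on simulated data and used Python 3.11.15, pandas 2.3.3, numpy 2.4.6, scipy 1.17.1 and matplotlib 3.10.9. Pseudocount, filter, scaling, activation threshold, cell filters, window and peak score were varied, as the closing section gives.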

Additional observations from a re-analysis of the deposited data

Results flagged for a closer look

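All 8 genes had BMP4 differences of opposite sign in some pair of factor sets at day 7, and for 3 of them a difference was called in both directions. Tdh was at 24.2 FPKM with BMP4 and 9.74 without in JGE, a difference of 1.23 on the log2(FPKM+1) scale, and had a difference of -1.42 in JGES, so the effects lie 2.66 apart. Tcl1 had a difference of 1.28 in JGEO, at 5.29 against 1.59 FPKM, and of -3.85 in JGES, 5.14 apart. Lin28a had 1.78 in JGE, at 5.21 against 0.809 FPKM, and -1.11 in JGEO, at 13.2 against 29.5, which is 2.89 apart. Each effect rests on 1 library with and 1 without BMP4, and the difference between the effects was not tested.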

How the results depend on the processing

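Of 92 alternatives run for 27 counts of the 8 genes, 86 left the count within 1.5 times its value. The 6 that did not were all counts of promoter peaks at day 6. For ATAC-seq, the MEF count and a count pooled over the SALL4 libraries of days 9 and 11 were varied, and both stayed within 1.5 times. Counts of single SALL4 ATAC-seq libraries were not varied, and they also hold low scores. With SALL4-WT at day 1, the best Dppa3 and Utf1 peaks scored 83.5 and 54.2. At a peak score of at least 100, SALL4-WT peaks fell from 2 promoters to 1, H3K27ac with SALL4-WT from 1 to 0 and H3K27ac with SALL4-delN12 from 4 to 1. With 1 kb to each side, H3K27ac fell to 0 with SALL4-WT and to 2 with SALL4-delN12. With 5 kb to each side, SALL4-delN12 peaks rose from 1 promoter to 2. Of 248 alternatives for 120 single differences none reversed a called value, and 11 moved one: 9 under a pseudocount of 0.1, all in genes at 1.26 FPKM or less in both libraries, and 2 under scaling, Lin28a in JGES at day 5 (-0.86, no longer called) and Dppa5a in JGESO against JGES (-1.04, then called). CPM relative to the median gene, an alternative chosen after seeing the data, gave 6 genes lower with BMP4 in place of 5. Lin28a over all cells, at 1.42-fold, was then no longer called higher. Leaving out a replicate could not be done with 1 library per condition. Each single comparison has 1 library per condition and gives no test. From day 1 on, the JGES libraries with and without BMP4 are matched by day, as are the SALL4-WT and SALL4-delN12 libraries. An analysis paired over days was not run. Low FPKM values have unknown depth, so a gene listed at 0 is not shown to be absent.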
